A study of Mus musculus with 6 samples.

Results

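The protease genes of the MMP, ADAM and ADAMTS families and the TIMP genes that encode their inhibitors were examined in bulk RNA-seq of the mouse line MB49, which was grown from a bladder cancer of a male. Members were all protein-coding genes of the deposited count table whose symbol begins with Mmp, Adam, Adamts or Timp followed by a number. This gave 78 of the 22046 protein-coding genes in the table (54532 genes in all): 22 Mmp, 33 Adam, 19 Adamts and 4 Timp genes. Mmp1a has a name of this kind and no counts, and was left out because the table lists it as a polymorphic pseudogene. The Y-positive form of MB49 had been edited with CRISPR, and the labels name 2 groups of 3 libraries, CRISPR Y-KO and CRISPR Y-Scr, of which the latter is the control and carries a guide RNA without a target. Per the labels, transduced cells were sorted on the red fluorescent protein tRFP and grown out as single-cell clones, poly-A RNA was made into stranded libraries, and all 6 libraries belong to batch 1. The guide behind Y-KO, and whether a group's 3 libraries came from different clones or from cultures of 1 clone, are not stated in the labels. The p-values therefore cover no more than the differences among these libraries, and those may be technical.

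Matrix metalloproteinases are zinc-dependent endopeptidases, made as inactive precursors, that cleave collagens, other matrix proteins and many secreted factors. ADAM proteases sit in the plasma membrane and release the outer part of other membrane proteins such as growth factor precursors, cytokine receptors and adhesion molecules, while a large branch of the family is made in testis and acts in sperm. ADAMTS proteases are secreted and bind matrix; some cleave proteoglycans such as versican and aggrecan and others trim procollagens. TIMPs bind the active site of these enzymes and block it. In tumours these genes are studied for their part in matrix turnover, invasion and growth factor release.

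The total count per library was between 15698510 and 24633158, at which 3 counts correspond to 0.125 to 0.190 CPM (counts per 1000000 counts). The 4 Y-linked genes Ddx3y, Eif2s3y, Kdm5d and Uty summed to 370 to 431 CPM in the Y-Scr libraries and had 0 counts in all Y-KO libraries. Of 11 epithelial markers 3 were measurable: Krt8 averaged 2188 ± 67.2 CPM in Y-Scr and 2816 ± 142 CPM in Y-KO (SD, n = 3; 0.36 ± 0.06 on the log2 scale, edgeR adjusted p = 7.1e-05), Krt18 averaged 1326 ± 121 CPM in Y-Scr and 1351 ± 19.7 CPM in Y-KO (0.03 ± 0.07, edgeR adjusted p = 0.773) and Krt19 averaged 1.42 ± 0.371 CPM in Y-Scr and 7.53 ± 0.574 CPM in Y-KO (2.37 ± 0.23, edgeR adjusted p = 1.5e-07). The epithelial markers Epcam, Cdh1 and Upk3a were at 0 in all 6 libraries. Among markers of other cells, the leukocyte genes Ptprc and Itgam were at 0, 9 of 11 lymphoid markers had no counts (summed level at most 0.269 CPM), and 7 endothelial markers together stayed at or below 1.45 CPM. The 12 myeloid markers summed to 174 to 178 CPM in the control and 137 to 146 CPM in Y-KO, with Cd14, Cd68 and Ly6g past the threshold and lower in Y-KO. In bulk RNA, fewer cells making a transcript and less transcript per cell cannot be told apart.

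More of the tested members, the inhibitor genes included, were lower than higher in Y-KO. Of the 78 members 28 had no counts, 24 had too few to be tested and 26 were tested; 11 were lower in Y-KO, 4 were higher and 11 did not pass (edgeR quasi-likelihood test, Benjamini-Hochberg adjusted p of 0.05 over all genes tested). The members thus passed in 57.7% of cases, beside 43.6% of all 12907 genes tested; 42.3% of them were lower, beside 23.0% of all genes, and 15.4% higher, beside 20.7%. A change of at least 2-fold was called for 7 of the 26 (26.9%), beside 5.70% of all genes, but 5 of the 7 are among the 6 members that reached the low-count filter through 1 group (Mmp3, Mmp10, Mmp13 and Mmp24 through Y-Scr, Mmp15 and Adam33 through Y-KO). These could be tested only through the group in which they are higher, so the counts describe the measurable members and not the families. Of the 20 other tested members 10 were called (50.0%), and 2 of the 20, Adam3 and Adamts4, by at least 2-fold. By direction 8 of the 20 were lower, beside 23.0% of all genes, and 2 were higher, beside 20.7%. The shares of all genes were not split by how a gene reached the filter. The 2 groups did not overlap for 14 of the 26 (53.8%), beside 52.9% of all genes, which is close to the background. The median log2 difference of the tested members (Y-KO minus Y-Scr) was -0.07, against -0.01 over all genes. Over all genes the split was 2667 higher and 2966 lower, and it became 3369 higher and 2456 lower when a trend with gene length was removed, a correction that moved the median of all genes to 0.06.

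**Figure D1:**
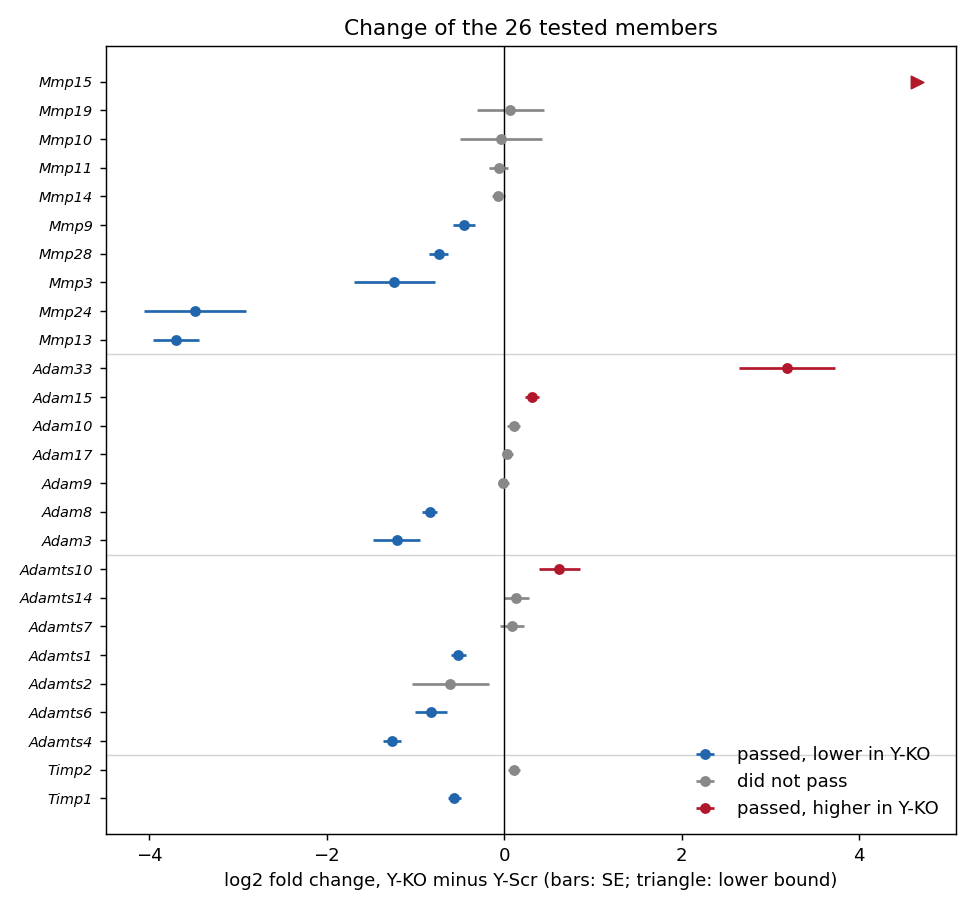
Log2 fold change (Y-KO minus Y-Scr, horizontal axis) of the 26 tested members, grouped by family and coloured by whether they passed the test; bars are the standard error of the fit and the triangle is the lower bound for Mmp15, which had no counts in Y-Scr. Mmp13 and Mmp24 lie farthest to the left at -3.70 and -3.48, Adam33 and Mmp15 farthest to the right, and Adam9, Adam10, Adam17 and Mmp14 lie close to 0.

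Of the 22 Mmp genes 9 stand in 1 cluster on chromosome 9, from 7272514 to 7699585 (GRCm38), which holds collagenases, stromelysins, matrilysin and macrophage elastase. Only Mmp13, Mmp3 and Mmp10 of this cluster were measurable; Mmp1b, Mmp7, Mmp8, Mmp12, Mmp20 and Mmp27 had no counts in any library. Promoters of this cluster are known for a binding site of the transcription factor AP-1 near the start, so RefSeq promoter windows (GRCm38.p6, 250 bases before to 50 after each start) were searched on both strands for the AP-1 letters TGAGTCA (reverse complement TGACTCA) and for TATAAA. All 9 cluster genes had a window; 6 held the AP-1 letters and 8 held TATAAA. Among the 39 other members with a window 3 held the AP-1 letters (Adam19, Adam1b and Adam29) and 5 held TATAAA. Of all 32851 windows 5.20% held the AP-1 letters and 13.6% held TATAAA. These shares are per window, whereas a member was counted if any of its windows held the letters (48 members with 53 windows). The 250 bases before the start are shown for the 3 measurable cluster genes and, as a neighbour without counts, for Mmp12, each 5′ to 3′ on its gene's strand with the motif letters in capitals. For Mmp12 TATAAA falls after the start, outside the bases shown.
Mmp13 (chr9:7272264-7272513, plus strand): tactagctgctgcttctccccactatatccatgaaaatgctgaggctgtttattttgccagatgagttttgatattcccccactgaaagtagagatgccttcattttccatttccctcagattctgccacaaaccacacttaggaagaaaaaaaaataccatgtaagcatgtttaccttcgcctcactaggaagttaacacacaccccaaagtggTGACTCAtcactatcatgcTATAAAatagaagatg
Mmp3 (chr9:7445572-7445821, plus strand): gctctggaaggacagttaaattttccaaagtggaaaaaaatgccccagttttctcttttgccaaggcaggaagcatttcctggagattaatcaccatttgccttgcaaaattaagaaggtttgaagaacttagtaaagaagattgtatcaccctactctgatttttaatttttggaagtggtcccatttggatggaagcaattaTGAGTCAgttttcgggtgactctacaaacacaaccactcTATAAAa
Mmp10 (chr9:7502092-7502341, plus strand): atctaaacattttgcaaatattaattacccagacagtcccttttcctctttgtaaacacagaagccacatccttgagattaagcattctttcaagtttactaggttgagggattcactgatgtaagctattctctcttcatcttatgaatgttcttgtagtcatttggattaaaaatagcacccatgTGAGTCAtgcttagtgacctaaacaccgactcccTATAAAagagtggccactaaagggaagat
Mmp12 (chr9:7347124-7347373, plus strand): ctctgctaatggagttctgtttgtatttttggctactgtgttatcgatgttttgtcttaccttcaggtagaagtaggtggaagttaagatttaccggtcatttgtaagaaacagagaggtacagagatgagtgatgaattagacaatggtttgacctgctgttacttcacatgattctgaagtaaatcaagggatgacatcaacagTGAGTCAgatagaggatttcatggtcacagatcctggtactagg

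The AP-1 match began 35 bases before the start in Mmp13, in its reverse complement, 46 before in Mmp3, 63 before in Mmp10 and 44 before in Mmp12. In the remaining cluster genes with a match it began 93 bases before the start of Mmp1b and 63 before that of Mmp7. TATAAA lay between the AP-1 match and the start in Mmp13, Mmp3 and Mmp10, at 16, 7 and 29 bases before it. A match is a description of the letters and no evidence of binding, which was not tested. The 3 measurable genes share the match with 3 cluster genes that had no counts.

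Mmp13, collagenase-3, which cleaves fibrillar collagen, had the largest reduction of the tested members (ENSMUSG00000050578, chromosome 9, 7272514 to 7283331, plus strand). It measured 11.5, 12.5 and 10.7 CPM in the Y-Scr libraries and 0.430, 1.37 and 0.906 CPM in the Y-KO libraries. The groups were far apart, and the highest Y-KO library lay well below the lowest Y-Scr library. The summed counts were 645 and 46, a level 13.04-fold lower in Y-KO (95% interval 9.66 to 18.0 for counting error), and the fitted log2 difference was -3.70 ± 0.26 (SE; edgeR adjusted p = 1.2e-09). Mmp3, stromelysin-1, which degrades proteoglycans and activates other MMPs, lay near the low end of what was measurable (ENSMUSG00000043613, chromosome 9, 7445822 to 7455975, plus strand), with 1.84, 2.30 and 0.961 CPM in the Y-Scr libraries and 1.07, 0.373 and 0.623 CPM in the Y-KO libraries. Its groups overlapped, since the highest Y-KO library exceeded the lowest Y-Scr library. The log2 difference was -1.24 ± 0.46 (edgeR adjusted p = 0.0338), and the call was lost in 6 of 15 alternative fits. These included the fits without Y-Scr replicate 1, Y-Scr replicate 2, Y-KO replicate 2 and Y-KO replicate 3, with adjusted p of 0.0809, 0.188, 0.1504 and 0.103. Mmp10, stromelysin-2, which lies between Mmp3 and the silent Mmp8 in the cluster, differed by -0.03 ± 0.46 (edgeR adjusted p = 0.963) at levels of 0.880 ± 0.334 CPM in Y-Scr and 0.854 ± 0.351 CPM in Y-KO (SD, n = 3).

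The membrane-anchored MMPs, which act at the cell surface, went in different directions. Mmp15 (MT2-MMP; ENSMUSG00000031790, chromosome 8, 95352268 to 95375080, plus strand) had 0, 0 and 0 counts in the Y-Scr libraries and 20, 30 and 20 counts in the Y-KO libraries. It was therefore seen in Y-KO alone, at 1.07, 1.87 and 1.133 CPM. Against a floor of 3 counts over the Y-Scr group this was at least 25.1-fold higher (edgeR adjusted p = 1.6e-05). Mmp24 (MT5-MMP; ENSMUSG00000027612, chromosome 2, 155775342 to 155818366, plus strand) showed the opposite order, with 1.01, 1.51 and 2.09 CPM in the Y-Scr libraries and 0.0537, 0.187 and 0.170 CPM in the Y-KO libraries. The groups did not overlap; the summed counts of 91 and 7 gave a level 12.1-fold lower in Y-KO (95% interval 5.64 to 30.9), and the log2 difference was -3.48 ± 0.58 (edgeR adjusted p = 7.5e-05). Mmp24 overlaps BC029722 on the opposite strand, which had 1504 counts in the control and 1127 in Y-KO; whether counting used the strand is not stated, and the part of that gene in the result was not tested. Other tested members, among the Adam, Adamts and Timp genes too, also overlap genes on the opposite strand, and the part of those genes in their results was not tested.

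Mmp14 (MT1-MMP), the membrane-anchored collagenase that activates proMMP-2, was the most abundant MMP per length, at 28.6 ± 1.75 CPM per kb in Y-Scr and 27.3 ± 2.85 CPM per kb in Y-KO (SD, n = 3). It measured 182, 163 and 167 CPM in the Y-Scr libraries and 162, 180.1 and 146 CPM in the Y-KO libraries. These values overlapped, and the log2 difference of -0.07 ± 0.07 did not pass (edgeR adjusted p = 0.492). The other 3 genes of this class were hardly seen: Mmp16 had no counts, and Mmp17 and Mmp25 had 2 and 4 in all libraries together.

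Of the gelatinases, which cut denatured and basement membrane collagen, Mmp9 was lower and Mmp2 was too low to be tested. Mmp9 measured 16.96, 20.02 and 16.5 CPM in the Y-Scr libraries and 14.3, 12.1 and 12.6 CPM in the Y-KO libraries. All Y-KO libraries were below all Y-Scr libraries, and Mmp9 fell by 0.45 ± 0.12 on the log2 scale (edgeR adjusted p = 0.00562). Mmp2, whose product MT1-MMP activates, was under the low-count filter, with 5, 3 and 6 counts in the Y-Scr libraries and 15, 9 and 32 counts in the Y-KO libraries. Its level from the summed counts of 14 and 56 was 4.30-fold higher in Y-KO (95% interval 2.36 to 8.37 for counting error only). It had no test in the fit with the filter, and it passed without the filter, at 2.06 ± 0.63 (edgeR adjusted p = 0.00573). No Y-Scr library reached the level of the filter, so Mmp2 could be tested only through Y-KO. Y-KO replicate 3 holds 32 of the 56 counts, and without it the ratio was 2.78 (95% interval 1.38 to 5.82).

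Mmp28, epilysin, a secreted MMP of epithelia, varied little within groups, with 20.4, 20.3 and 20.1 CPM in the Y-Scr libraries and 11.8, 12.4 and 12.2 CPM in the Y-KO libraries. The groups were separate, and it fell by 0.74 ± 0.11 on the log2 scale (edgeR adjusted p = 2.2e-05). The opposite-strand gene 1700020L24Rik had 294 counts in the control and 159 in Y-KO, and its part in the Mmp28 result was not tested. Mmp11, stromelysin-3, averaged 20.2 ± 1.16 CPM in Y-Scr and 19.3 ± 2.19 CPM in Y-KO and differed by -0.06 ± 0.11 (edgeR adjusted p = 0.672), and Mmp19 averaged 1.1 ± 0.122 CPM in Y-Scr and 1.17 ± 0.214 CPM in Y-KO and differed by 0.07 ± 0.38 (edgeR adjusted p = 0.905). Among the Mmp genes 5 were thus lower, 1 was higher and 4 did not pass, with a median log2 difference of -0.26 over the 10 tested (6 of 10 passed, beside 43.6% of all genes; 50.0% were lower, beside 23.0%, and 1 of 10 was higher, beside 20.7%). Of these 10, 5 reached the filter through 1 group. With Mmp2 let through by its Y-KO libraries, 2 were higher without each Y-Scr replicate and without Y-KO replicate 2.

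**Figure D2:**
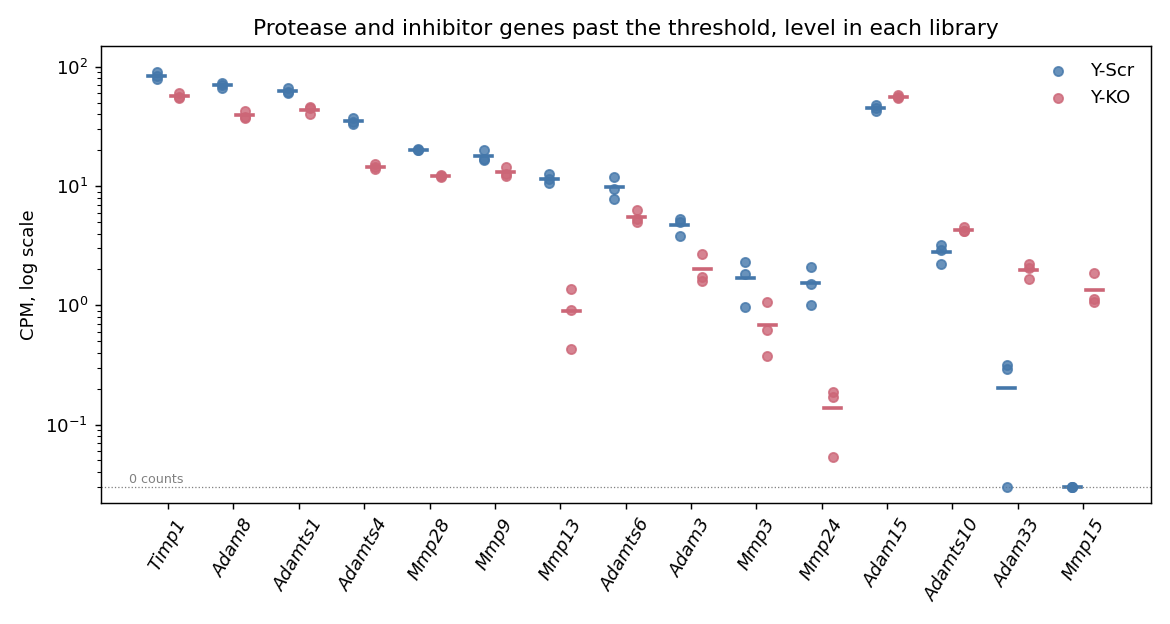
Level of the 15 members past the threshold in each library, in CPM on a logarithmic axis; points are libraries, bars are group means, and libraries with 0 counts are drawn on the dotted line. The 11 lower genes are on the left, ordered by level, with Mmp13 and Mmp24 showing the widest gaps; Mmp3 is the gene whose 2 groups overlap, and Mmp15 has all 3 Y-Scr libraries at 0.

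The widely expressed sheddases Adam9, Adam10 and Adam17 were abundant and did not pass the test. Adam10, the main sheddase of Notch, cadherins and many other surface proteins, measured 194, 165 and 161 CPM in the Y-Scr libraries and 189, 181 and 191 CPM in the Y-KO libraries. Adam17 (TACE), which releases TNF and the EGF receptor ligands, measured 129.9, 123 and 124 CPM in the Y-Scr libraries and 123, 125 and 138 CPM in the Y-KO libraries. The 2 groups overlapped for both genes, and the log2 differences were 0.11 ± 0.07 for Adam10 (edgeR adjusted p = 0.237) and 0.04 ± 0.06 for Adam17 (edgeR adjusted p = 0.688). Adam10 passed when Y-Scr replicate 1, its highest library, was left out (0.20, adjusted p = 0.0130). Adam9, a broadly expressed surface protease, averaged 172 ± 10.1 CPM in Y-Scr and 171 ± 5.80 CPM in Y-KO (SD, n = 3), with a difference of -0.01 ± 0.06 (edgeR adjusted p = 0.927). Per length, Adam9 and Adam10 were the most abundant ADAMs, at 34.9% to 36.7% and 28.2% to 33.6% of the family's summed CPM per kb.

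Adam8 and Adam15 moved in opposite directions. Adam8, an ADAM found in leukocytes and in several carcinomas, measured 66.6, 70.2 and 73.8 CPM in the Y-Scr libraries and 38.03, 42.9 and 37.0 CPM in the Y-KO libraries. It was lower in every Y-KO library and fell by 0.84 ± 0.08 on the log2 scale (edgeR adjusted p = 1.8e-07). Because Adam8 and Mmp9 are also made by myeloid cells, the myeloid markers belong beside them: the list summed to 174 to 178 CPM in Y-Scr and 137 to 146 CPM in Y-KO, with Cd14 lower by 0.56 ± 0.08 on the log2 scale (edgeR adjusted p = 2.9e-05), while the defining genes Ptprc and Itgam were at 0 in all 6 libraries; the part of such cells in the Adam8 and Mmp9 results was not tested. Adam15, an ADAM that carries an integrin-binding sequence, measured 45.2, 42.9 and 47.9 CPM in the Y-Scr libraries and 55.8, 55.4 and 58.1 CPM in the Y-KO libraries. The groups did not overlap, and its log2 difference was 0.31 ± 0.08 (edgeR adjusted p = 0.00359).

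Adam33, best known from asthma genetics and from smooth muscle and fibroblasts, was nearly silent in the control (ENSMUSG00000027318, chromosome 2, 131050591 to 131063814, minus strand). It measured 0.316, 0 and 0.292 CPM in the Y-Scr libraries and 1.67, 2.24 and 2.04 CPM in the Y-KO libraries. The lowest Y-KO library was well above the highest Y-Scr library; summed counts were 12 and 103, a level 9.23-fold higher in Y-KO (95% interval 5.06 to 18.4), and the log2 difference was 3.19 ± 0.54 (edgeR adjusted p = 1.1e-04). The fibroblast markers are given beside it: the 11 genes summed to 5268 to 5849 CPM in Y-Scr and 5783 to 6085 CPM in Y-KO, with 3 at 0 in each group, and of 6 tested 1 passed, Pdgfra, which was higher in Y-KO (0.73 ± 0.13, edgeR adjusted p = 1.8e-04); their part in the result was not tested. Among the other ADAMs with a catalytic site, Adam12 and Adam28 had no counts and Adam19 had 0 counts in the control and 9 in Y-KO.

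The ADAMs of testis and sperm were mostly silent: 12 of 21 had no counts and 8 more were under the filter. The exception was Adam3 (cyritestin), a sperm surface protein needed for fertilization, which lies with Adam5, Adam9, Adam18 and Adam32 in a chromosome 8 cluster of 414682 bases (24602246 to 25016927, GRCm38). Adam3 measured 4.999, 5.32 and 3.80 CPM in the Y-Scr libraries and 2.69, 1.74 and 1.59 CPM in the Y-KO libraries. The groups did not overlap, and its log2 difference was -1.21 ± 0.27 (edgeR adjusted p = 0.00107). In the same cluster Adam9 was among the most abundant ADAMs, while Adam5, Adam18 and Adam32 had 17, 5 and 2 counts in all libraries together. The brain ADAMs without a catalytic site were also under the filter, and 2 of them had more counts in Y-KO: Adam11 had 9 and 27, a ratio of 3.23 (95% interval 1.47 to 7.80), and Adam22 had 21 and 38, a ratio of 1.95 (1.11 to 3.49). Leaving out single libraries gave 2.61 to 5.13 for Adam11, the highest without Y-Scr replicate 2, and 1.11 to 3.67 for Adam22, the lowest without Y-KO replicate 2 and the highest without Y-Scr replicate 1; the Adam22 ratio without Y-Scr replicate 3 was 1.30. Neither passed in the 4 fits that let each of them through. In all, 2 of the 7 tested ADAMs were higher, 2 were lower and 3 did not pass, with a median log2 difference of 0.04. The share of 28.6% in each direction, over 7 genes, lies near the background of 20.7% higher and 23.0% lower.

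Both measurable proteoglycan-cleaving ADAMTS genes were lower. Adamts4, aggrecanase-1 (ENSMUSG00000006403, chromosome 1, 171250421 to 171260637, plus strand), measured 37.7, 33.2 and 34.3 CPM in the Y-Scr libraries and 15.3, 14.4 and 13.9 CPM in the Y-KO libraries. Its groups were well separated and the level was 2.40-fold lower in Y-KO, a log2 difference of -1.27 ± 0.10 (edgeR adjusted p = 5.6e-09). Adamts1, which cleaves versican and aggrecan, measured 66.5, 61.8 and 59.9 CPM in the Y-Scr libraries and 40.2, 45.4 and 46.1 CPM in the Y-KO libraries. All Y-KO libraries were below all Y-Scr libraries, and Adamts1 fell by 0.52 ± 0.08 on the log2 scale (edgeR adjusted p = 6.0e-05). Adamts5, aggrecanase-2, which lies next to Adamts1 on chromosome 16, had 0 counts in all 6 libraries, as did Adamts9. The limit that a count of 0 allows is 3 counts, which is 0.125 to 0.190 CPM in these libraries.

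Of the remaining ADAMTS genes, Adamts6 and Adamts10, a pair of close relatives linked to fibrillin and focal adhesions, differed in direction. Adamts6 measured 7.78, 9.50 and 12.0 CPM in the Y-Scr libraries and 5.05, 6.35 and 5.27 CPM in the Y-KO libraries. Its groups did not overlap and the log2 difference was -0.83 ± 0.18 (edgeR adjusted p = 0.00108). Adamts10 measured 2.91, 2.24 and 3.22 CPM in the Y-Scr libraries and 4.24, 4.54 and 4.19 CPM in the Y-KO libraries. Its groups did not overlap either, but its log2 difference of 0.62 ± 0.23 passed narrowly (edgeR adjusted p = 0.0369) and the call was lost in 6 of 15 alternative fits, with adjusted p from 0.0512 to 0.122. The procollagen N-proteinases Adamts2 and Adamts14 differed by -0.61 ± 0.44 and 0.13 ± 0.14 (edgeR adjusted p = 0.280 and 0.474), and Adamts7, which cleaves cartilage oligomeric matrix protein, by 0.08 ± 0.14 (edgeR adjusted p = 0.655). Over the 7 tested ADAMTS genes 3 were lower, 1 was higher and 3 did not pass, with a median log2 difference of -0.52 (57.1% passed, beside 43.6% of all genes; 42.9% were lower, beside 23.0%, and 14.3% higher, beside 20.7%). The higher count went to 0 without Y-Scr replicate 2 and without each Y-KO replicate.

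The inhibitors were dominated by Timp1 and Timp2. Timp2 (ENSMUSG00000017466, chromosome 11, 118301069 to 118355740, minus strand), which blocks MMPs and also takes part in the activation of proMMP-2 with MT1-MMP, measured 479, 473 and 511 CPM in the Y-Scr libraries and 498, 555 and 527 CPM in the Y-KO libraries. The groups overlapped, and the log2 difference of 0.11 ± 0.06 did not pass (edgeR adjusted p = 0.174), although it did with the gene length trend removed (0.20, adjusted p = 0.00757). Timp1 (ENSMUSG00000001131, chromosome X, 20870166 to 20874735, plus strand), a secreted inhibitor of most MMPs, measured 79.3, 83.6 and 91.1 CPM in the Y-Scr libraries and 60.9, 56.1 and 55.3 CPM in the Y-KO libraries. All Y-KO libraries were below all Y-Scr libraries, and Timp1 fell by 0.56 ± 0.08 on the log2 scale (edgeR adjusted p = 9.8e-06). It overlaps Syn1, which is on the opposite strand and had 80 and 70 counts. Timp3, the matrix-bound inhibitor that also blocks ADAMs and ADAMTS proteases, had 6 counts in the control and 3 in Y-KO, and Timp4 had 3 and 1. No Timp gene was higher by edgeR, by DESeq2 or by limma-voom, and none was higher at an unadjusted edgeR p of 0.05, a count of 0.

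Summed per length, each family was held by a few genes, and the make-up differed between the groups as a description without a test. Mmp14 made up 56.0, 52.2 and 54.6% of the Mmp sum in the Y-Scr libraries and 61.4, 65.9 and 61.7% in the Y-KO libraries, while Mmp13 made up 7.88, 8.96 and 7.80% and 0.363, 1.12 and 0.852%. The Y-KO libraries held a larger share of Mmp14, whose own level overlapped between groups, and a far smaller share of Mmp13. Adamts4 went from 29.4, 28.3 and 28.7% of the Adamts sum to 18.6, 16.5 and 17.03%, and Adam8 from 11.4, 13.2 and 13.7% of the Adam sum to 7.16, 7.91 and 6.73%. Timp1 was 42.1, 43.7 and 43.9% of the Timp sum in Y-Scr and 34.9, 30.7 and 31.5% in Y-KO, with Timp2 making up nearly all of the rest. The family sums were 51.3 to 54.7 CPM per kb in Y-Scr and 39.8 to 45.8 in Y-KO for the Mmp genes, 24.4 to 26.6 and 17.01 to 18.2 for the Adamts genes, 115 to 126 and 114 to 119 for the Adam genes, and 212 to 234 and 196 to 206 for the Timp genes. The sums overlapped between groups for the Adam genes and not for the other families.

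**Figure D3:**
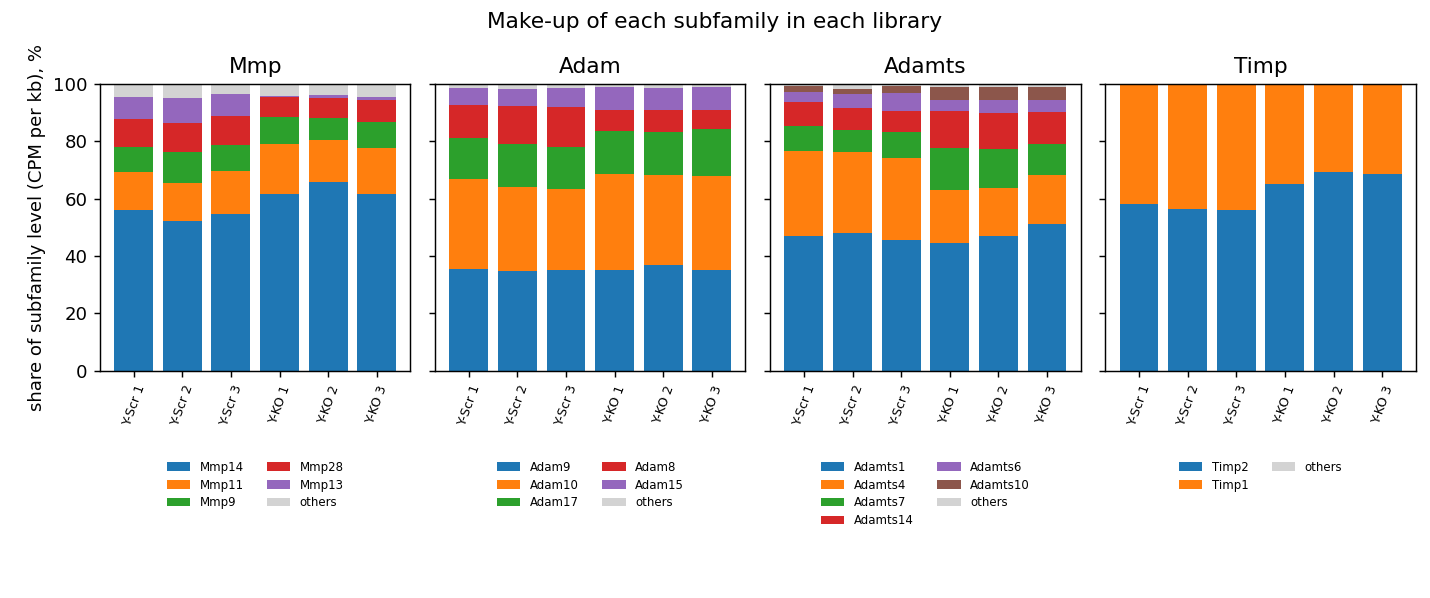
Share of each family's summed level (CPM per kb, vertical axis in percent) held by its leading genes in each of the 6 libraries. Mmp13 shrinks to 0.363% to 1.12% of the Mmp sum in the Y-KO libraries, Adamts4 to 16.5% to 18.6% of the Adamts sum, and Timp2 is 56.1% to 57.9% of the Timp sum in Y-Scr and 65.1% to 69.3% in Y-KO.

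The untested members with any counts had 1 to 70 in all 6 libraries together, with a median of 7, and 15 of the 24 had at most 10. Beside Mmp2, Adam11 and Adam22, the highest were Adam1a with 11 in Y-Scr and 20 in Y-KO, Adamts8 with 15 and 10, Adam4 with 10 and 11, Adam5 with 11 and 6 and Mmp23 with 9 and 7. Adam1a and Adam4 overlap other genes on their own strand. The 28 members without counts comprised 8 Mmp, 15 Adam and 5 Adamts genes. The remaining low members had 14 counts or fewer in all libraries: Mmp17 and Mmp25, Adam2, Adam18, Adam19, Adam21, Adam30 and Adam32, Adamts12, Adamts13, Adamts15, Adamts16, Adamts17 and Adamts20, and Timp3 and Timp4. Besides those named above, the members without counts were Mmp21, the brain gene Adam23, the testis and sperm genes Adam1b, Adam6a, Adam6b, Adam7, Adam20, Adam24, Adam25, Adam26a, Adam26b, Adam29, Adam34 and Adam39, and Adamts3, Adamts18 and Adamts19. At this depth a level of these genes below the 3-count limit was not detectable.

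Genes that act with the proteases were taken from 6 lists of activators and inhibitors, cofactors, substrates and relatives. The plasminogen activator genes, whose products make plasmin, an activator of several proMMPs, were lower in Y-KO. In the list of MMP activators and inhibitors 10 of 19 genes were tested, 4 were lower and 1 was higher, with a median of -0.05; 50.0% thus passed, near the 43.6% of all genes. The urokinase gene Plau averaged 79.0 ± 2.91 CPM in Y-Scr and 38.1 ± 3.28 CPM in Y-KO (SD, n = 3; -1.05 ± 0.08, edgeR adjusted p = 5.6e-09). Its receptor gene Plaur averaged 269 ± 12.0 CPM in Y-Scr and 156 ± 5.21 CPM in Y-KO (-0.78 ± 0.06, edgeR adjusted p = 7.0e-09). The tissue activator gene Plat was lower as well (-0.67 ± 0.07, edgeR adjusted p = 2.1e-07). Thbs1, whose product binds MMPs, was higher (0.67 ± 0.11, edgeR adjusted p = 7.7e-05). Furin, the convertase that activates membrane-anchored MMPs and ADAMs, differed by 0.01 ± 0.07 (edgeR adjusted p = 0.936), and Reck, a membrane inhibitor of MMPs, had 8 and 5 counts. The list had 2 higher genes without Y-Scr replicate 1 and without Y-KO replicate 1.

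Most of the tested genes for ADAM-shed substrates passed, and more of them were lower than higher in Y-KO. Of 37 genes 25 were tested, 15 were lower and 5 were higher, with a median of -0.30. Thus 80.0% passed, beside 43.6% of all genes. The excess was on the lower side: 15 of 25 were lower, beside 23.0% of all genes. The 5 of 25 that were higher lie near the background of 20.7%. Some lower calls depended on the fit. That of Nrg1 was lost with DESeq2, with limma-voom and when any single library other than Y-Scr replicate 3 was left out. Cx3cl1 lost its call without Y-Scr replicate 3 or Y-KO replicate 3, and Sdc4 without Y-KO replicate 2. With the length trend removed Sdc4 and Tnfrsf1a lost theirs, while Ptprk was called lower and Sdc1 higher. These genes are named because their calls changed, after their values were seen. Vcam1, an adhesion molecule shed by ADAM17, measured 49.7, 46.4 and 43.3 CPM in the Y-Scr libraries and 6.34, 6.47 and 5.61 CPM in the Y-KO libraries. It was lower in every Y-KO library (-2.92 ± 0.11, edgeR adjusted p = 7.4e-14), and the adhesion gene Icam1 averaged 24.1 ± 2.27 CPM in Y-Scr and 6.09 ± 0.827 CPM in Y-KO (-1.98 ± 0.13, edgeR adjusted p = 6.0e-10). Ereg and Hbegf, which encode ligands of the EGF receptor, were lower. Ereg, for epiregulin, averaged 99.3 ± 5.28 CPM in Y-Scr and 34.8 ± 1.68 CPM in Y-KO (-1.51 ± 0.08, edgeR adjusted p = 9.3e-12), and Hbegf, for heparin-binding EGF-like growth factor, averaged 203 ± 6.34 CPM in Y-Scr and 103 ± 4.05 CPM in Y-KO (-0.98 ± 0.06, edgeR adjusted p = 2.3e-10). Areg, another such ligand, had 2 and 1 counts. The 5 higher genes were Notch1, Il6ra, Notch2, Met and Axl, with log2 differences from 0.25 to 0.91. Over the same samples Adam10 and Adam17 stood at 0.11 ± 0.07 and 0.04 ± 0.06, and neither passed.

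Of the ADAM cofactors and inhibitors 12 of 15 were tested, 3 were lower and 3 higher, with a median of 0.04; 50.0% passed, near the 43.6% of all genes (20.7% higher and 23.0% lower). Cd9, a tetraspanin that binds ADAM10 and ADAM17, averaged 905 ± 90.3 CPM in Y-Scr and 607 ± 12.6 CPM in Y-KO (-0.58 ± 0.07, edgeR adjusted p = 1.9e-06), and Tspan15, a tetraspanin partner of ADAM10, was higher (0.50 ± 0.12, edgeR adjusted p = 0.00229). Rhbdf2 (iRhom2), needed for the maturation of ADAM17, was lower by a small step (-0.22 ± 0.07, edgeR adjusted p = 0.0151), a call lost without Y-KO replicate 1 and without Y-KO replicate 3. Itgb1, an integrin subunit, was also lower (-0.17 ± 0.06, edgeR adjusted p = 0.0270), a call lost when any 1 library other than Y-Scr replicate 3 was left out; it is named because its calls changed, after its values were seen. Without Y-KO replicate 1, and without Y-KO replicate 3, 1 gene of the list was lower. Nrd1, nardilysin, an enhancer of ADAM17 activity, was higher (0.18 ± 0.06, edgeR adjusted p = 0.0197), a call lost without Y-Scr replicate 2, Y-KO replicate 1 or Y-KO replicate 2. Without Y-Scr replicate 2, and without Y-KO replicate 1, 1 gene of the list was higher. Among the ADAMTS matrix substrates 5 of 17 were tested: Vcan, the versican gene, averaged 128 ± 15.5 CPM in Y-Scr and 190.3 ± 9.90 CPM in Y-KO and was higher (0.57 ± 0.08, edgeR adjusted p = 9.0e-06), Ltbp1 was lower (-0.41 ± 0.07, edgeR adjusted p = 7.2e-05), and the median was 0.14; these 2 of 5 are near the share of all genes (43.6%). None of the 6 tested ADAMTS-like and partner genes (of 10) and none of the 3 other metzincins (of 10) passed by edgeR, a count of 0 in each. At an unadjusted p of 0.05 the first list had 1 lower gene, Adamtsl4 (-0.30 ± 0.12, edgeR adjusted p = 0.0515), and the second had 0; DESeq2 called 0 in both, and limma-voom called 1 lower gene in the first and 0 in the second.

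**Figure D4:**
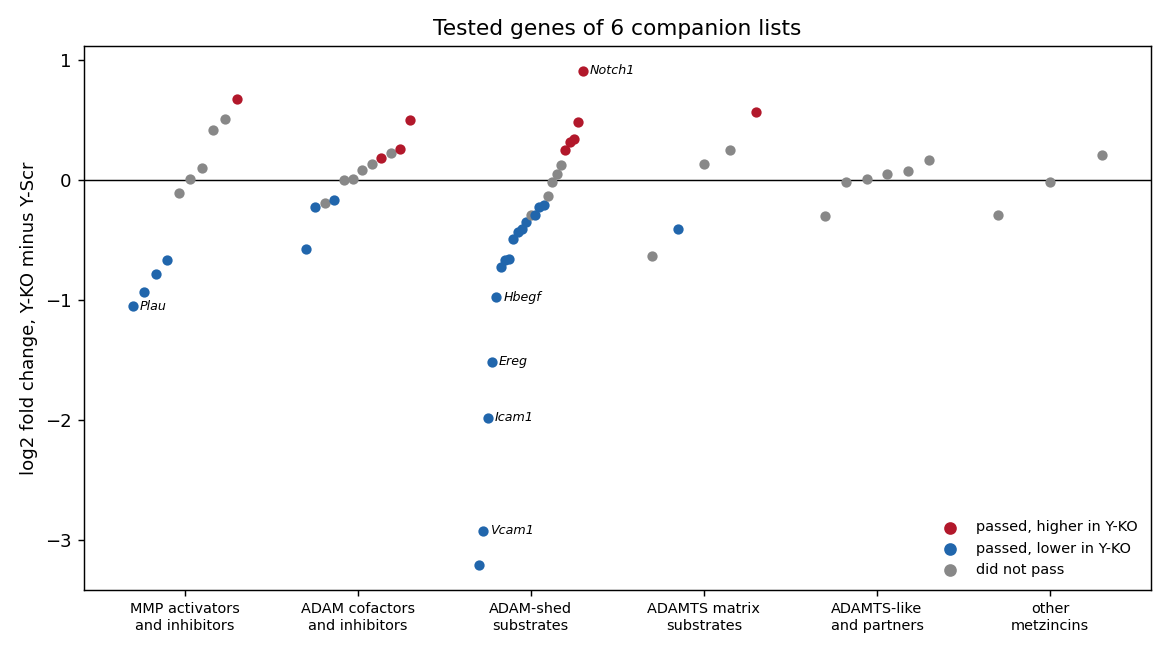
Log2 fold change (Y-KO minus Y-Scr, vertical axis) of each tested gene of the 6 companion lists, ordered within each list and coloured by whether it passed the test; labels mark examples given in the text. The ADAM-shed substrates spread widest, with Vcam1 at -2.92 and Icam1 at -1.98 below and Notch1 at 0.91 above, while all ADAMTS-like genes and other metzincins are grey.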

How the data were processed

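The values the authors deposited are whole-number counts of reads for each gene and library, not normalized. The submitters' processing notes list, without saying what each was used for, the aligner STAR 2.5.2b, the read counter featureCounts 1.5.3, DESeq2, Trimmomatic 0.39, FastQC 0.12.1 and MultiQC 1.13; the notes name GRCm39 and mm39, but 53499 of 54409 genes (98.3%) had their GRCm38 coordinates, as did 77 of the 78 members, so coordinates are given as GRCm38. Genes were tested with edgeR 4.0.16 in R 4.3.3 (filterByExpr, TMM scaling, robust quasi-likelihood fit, group as the only term, all 6 libraries, Benjamini-Hochberg adjustment over 12907 genes, threshold 0.05). The filter corresponded to 0.582 CPM in 3 libraries. CPM use TMM-scaled library sizes, and CPM per kb the deposited gene length. The standard error is the size of the log2 difference divided by the square root of F. Intervals of count ratios are exact binomial at 95% and, like the floor of 3 counts over a group, cover counting error only. DESeq2 1.42.0, limma-voom (limma 3.58.1), other scalings and filters, a replicate term and leaving out each library were alternatives.

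The members and lists were chosen with earlier results of these data known. The naming rule was: full values for each member past the threshold with a log2 change of at least 1 and at least 1 CPM in either group, for 12 members chosen by role, and for up to 4 genes per companion list with the smallest adjusted p plus 6 named in advance; Mmp28, Adam8, Adam15, Adamts6, Adamts10 and other members named outside it were added after their values were seen. Protein sequences were not used here, and some genes that the rule would name are not reported here. On simulated counts with 12723 genes tested for this comparison, the fit recovered 71.2% of 66 genes changed 1.5-fold, 86.2% of 65 changed 2-fold and 100% of 65 changed 4-fold. Far fewer genes were changed in the simulation than were called in the data (5633 of 12907). The adjusted threshold was therefore not the same, and the recovered shares need not hold for the data. No 2 libraries of a group agreed within counting noise.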

Additional observations from a re-analysis of the deposited data

How the results depend on the processing

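Of the 15 members past the threshold, 13 stayed past it in the same direction in every alternative that gave a value; Mmp3 and Adamts10 did not. Mmp3 had an adjusted p of 0.0628 with limma-voom (-1.19) and 0.0652 with the gene length trend removed (-1.04), and Adamts10 0.0512 without the low-count filter; the cause was not tested. Over all alternatives 3 to 6 members were higher and 10 to 11 lower. Some smaller counts moved. Without the filter 2 Mmp genes were higher instead of 1 (Mmp2 was then tested) and 0 Adamts genes instead of 1; leaving out single libraries gave 1 to 2 and 0 to 1. With the gene length trend removed 1 Timp gene was higher instead of 0. The MMP activators and inhibitors had 2 higher genes instead of 1 without the filter, with upper-quartile scaling, DESeq2, limma-voom, protein-coding genes alone, the replicate block or the length trend removed, and 1 to 2 with single libraries left out. The ADAM cofactors ranged from 1 to 3 higher and from 1 to 3 lower with single libraries left out (3 and 3 with all). The ADAMTS-like genes had 1 lower gene instead of 0 at 1 CPM in 3 libraries, with limma-voom and with protein-coding genes alone, and 0 to 1 with single libraries left out.

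Same-numbered libraries did not deviate together (correlations of -0.10, -0.07 and -0.03), so the numbers give no pairing. With the replicate block 3 members were higher and 11 lower, Adamts genes higher went to 0 and ADAM cofactors lower to 1, and all genes gave 2333 higher and 2627 lower. Among the members and the listed companion genes the block ended the calls of Adamts10 (0.63, adjusted p = 0.0563), Rhbdf2 (-0.22, adjusted p = 0.0523), Itgb1 (-0.17, adjusted p = 0.106), Nrd1 (0.19, adjusted p = 0.0682) and Nrg1 (-0.35, adjusted p = 0.0807), and added Lrp1 (0.52, adjusted p = 0.0094).

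Sign changes occurred in genes that did not pass. With the length trend removed the log2 difference was -0.000929 for Adam17, 0.0694 for Adam9, 0.17 for Mmp10, 0.0921 for Mmp11 and -0.0694 for Furin; for Adam9 it was 0.000167 with DESeq2 size factors in edgeR, 0.00211 with upper-quartile scaling and 0.000247 with DESeq2. With single libraries left out the ranges were -0.0164 to 0.0691 for Adam17, -0.0314 to 0.048 for Adam9, -0.86 to 0.0109 for Adamts2, -0.39 to 0.30 for Mmp10, -0.15 to 0.00567 for Mmp14, -0.0411 to 0.20 for Mmp19, -0.0334 to 0.22 for Adamtsl5, -0.0745 to 0.0425 for Bmp1, -0.51 to 0.0668 for Ece1, -0.0217 to 0.0756 for Furin and -0.0303 to 0.40 for Pappa2. Members under the filter are limited by depth and were read from their counts.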
